A study of Mus musculus with 29 samples.

Results

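The 10 genes described here encode transcription factors of the B-cell lineage (Pax5, Ebf1, Spib, Pou2af1, Pou2f2, Ikzf1, Ikzf3, Bcl6, Bach2 and Irf4). They were chosen by name, with earlier results of these data known, and all 10 are among the 13982 genes of the deposited table. RNA was measured in 14 libraries of (NZBxNZW)F1 mice, a cross that develops lupus-like nephritis with age, and the comparison of tissues asked how far tertiary lymphoid structures (TLS) of the kidney resemble lymph nodes. From proteinuric mice there were 4 kidney libraries (mice H6, H20, H115 and H117, aged 39, 36, 25 and 32 weeks), 3 libraries of TLS (mice H6, H20 and H115) and 3 of lymph node (mice H6, H20 and H117). TLS were cut out by hand under a loupe, and the kidney tissue came from the same kidneys. Lymph nodes of mice that were positive for anti-double-stranded DNA antibodies, without the proteinuric label, gave 3 libraries (mice D10, D11 and L25, aged 28, 29 and 18 weeks), and 1 further lymph node library came from a young mouse (mouse C45, aged 4 weeks). The labels name no transgene and no treatment. The miRNeasy kit was used to isolate RNA from the antibody-positive nodes and TRIzol for all others.

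Pax5 and Ebf1 switch on the B-cell program in committed precursors and keep it running in mature B cells. Pou2f2 (Oct-2) binds the octamer element of antibody gene promoters, and Pou2af1 (OCA-B) is its B-cell coactivator. Spib is an ETS factor of B cells and plasmacytoid dendritic cells, while the zinc finger factors Ikzf1 (Ikaros) and Ikzf3 (Aiolos) act in B and T cells alike. Bcl6 is the repressor that germinal center B cells and follicular helper T cells depend on, Bach2 holds back plasma cell differentiation, and Irf4 drives it, as well as acting in activated T cells. In a lymph node or TLS, RNA of these genes therefore comes from several cell types, and fewer cells of a type cannot be told apart from less RNA per cell in such whole-tissue libraries.

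The promoters of the 4 members with the most reads per kilobase of exon in the lymph node are shown, because these 4 carry most of the signal in the comparisons. They are the RefSeq windows of 300 bases (250 before to 50 after an annotated start site, GRCm38.p6), in which capitals mark a match to one of the motifs searched. The windows lie at chr9:51213440-51213739 (Pou2af1, plus strand), chr7:44532022-44532321 (Spib, minus strand), chr11:11685675-11685974 (Ikzf1, plus strand) and chr13:30748983-30749282 (Irf4, plus strand).
Pou2af1: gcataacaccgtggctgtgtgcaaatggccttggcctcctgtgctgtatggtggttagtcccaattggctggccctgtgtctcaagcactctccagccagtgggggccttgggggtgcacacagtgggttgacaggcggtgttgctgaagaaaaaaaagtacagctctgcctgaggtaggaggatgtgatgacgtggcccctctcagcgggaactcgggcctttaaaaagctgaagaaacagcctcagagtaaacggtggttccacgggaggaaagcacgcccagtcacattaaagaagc
Spib: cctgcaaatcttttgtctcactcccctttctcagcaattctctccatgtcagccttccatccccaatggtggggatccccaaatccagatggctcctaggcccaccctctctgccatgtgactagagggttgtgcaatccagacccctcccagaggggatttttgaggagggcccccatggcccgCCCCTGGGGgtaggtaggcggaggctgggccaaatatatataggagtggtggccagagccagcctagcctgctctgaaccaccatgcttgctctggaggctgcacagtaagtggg
Ikzf1: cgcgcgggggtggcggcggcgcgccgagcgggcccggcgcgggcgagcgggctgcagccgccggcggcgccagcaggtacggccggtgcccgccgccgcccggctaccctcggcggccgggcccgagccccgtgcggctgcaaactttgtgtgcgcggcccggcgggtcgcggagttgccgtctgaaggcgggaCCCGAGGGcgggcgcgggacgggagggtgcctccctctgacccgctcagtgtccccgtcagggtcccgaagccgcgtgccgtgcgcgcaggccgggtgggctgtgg
Irf4: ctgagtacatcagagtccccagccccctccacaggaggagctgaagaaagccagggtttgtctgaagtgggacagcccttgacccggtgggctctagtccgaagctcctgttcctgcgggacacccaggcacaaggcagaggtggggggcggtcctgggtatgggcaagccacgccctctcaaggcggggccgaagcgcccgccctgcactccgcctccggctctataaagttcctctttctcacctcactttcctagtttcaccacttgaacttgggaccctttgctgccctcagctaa

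The motifs, searched on both strands, were the octamer ATGCAAAT, the EBF motif CCCNNGGG, the Ikaros motif TGGGAA and the ETS-IRF composite GGAANNGAA. The capitals in the Spib window are a pair of overlapping EBF matches and those in the Ikzf1 window shown 1 EBF match. The windows of Pou2af1 and Irf4 held no match. Another Ikzf1 window, at chr11:11689927-11690226, is not shown and held no match. Over the 12 windows of the 9 members with an entry (Ikzf3 had none), the octamer was found in 0, the EBF motif in 2, the Ikaros motif in 1 (Ebf1) and the ETS-IRF composite in 3 (Pou2f2, Bcl6 and Bach2). Of the 32851 mouse promoter windows of this length, 1.74% held the octamer, 13.7% the EBF motif, 25.6% the Ikaros motif and 8.24% the ETS-IRF composite. A match is a description of these letters and not a measured binding site.

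The libraries held between 343825 and 443379 reads, so that the members were counted in small numbers of reads. Levels are given as reads and as normalized reads, that is, reads divided by the size factor that the authors used for that library. The floor used here, 3 reads, came to between 2.36 and 5.32 normalized reads depending on the library. Ribosomal RNA took 59.6% of the reads in the kidney of mouse H117, 32.7% in the lymph node of mouse H6, 24.6% in the TLS of mouse H115 and at most 7.57% elsewhere. Proximal tubule markers summed to between 4917 and 14910 normalized reads in kidney, 781 to 6178 in TLS and at most 1.90 in any lymph node. Urothelial markers summed to between 84.9 and 544 in TLS and at most 11.5 in kidney.

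Pax5 RNA was found in every TLS and lymph node library and in no kidney library. The 3 TLS libraries held 8 (mouse H115), 5 (mouse H20) and 7 (mouse H6) reads, and the proteinuric lymph nodes 19 (mouse H117), 9 (mouse H20) and 1 (mouse H6). The antibody-positive lymph nodes held 9, 13 and 6 reads (mice D10, D11 and L25), and the young lymph node 11. TLS overlapped the proteinuric and the antibody-positive lymph nodes, with means of 6.20 ± 2.41 normalized reads in TLS (SD, n = 3), 8.45 ± 6.96 in the proteinuric and 9.20 ± 2.84 in the antibody-positive lymph nodes (n = 3 each). The single young lymph node, at 9.84 normalized reads, lay above the highest TLS library, at 8.72.

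Ebf1, which acts with Pax5 in early B-cell commitment, was at the limit of detection. No read was counted in kidney, 1 read in each TLS library, and 3, 1 and 0 reads in the proteinuric lymph nodes of mice H117, H20 and H6. The antibody-positive lymph nodes held 2, 3 and 4 reads (mice D10, D11 and L25) and the young lymph node 2. The 3 reads of the TLS together equal the floor, so no difference from kidney was detectable at this depth.

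Of the octamer factors, the coactivator Pou2af1 was the most abundant member per kilobase of exon in every lymphoid group, with means of 18.9 normalized reads per kilobase in TLS and 40.3 in the proteinuric lymph nodes. A single read was found in the kidney of mouse H20 and none in the other 3 kidneys. TLS held 29 (mouse H115), 70 (mouse H20) and 68 reads (mouse H6), against 145 (mouse H117), 108 (mouse H20) and 61 (mouse H6) in the proteinuric lymph nodes. In normalized reads, every proteinuric lymph node (88.4 or more) lay above every TLS library (31.6 to 57.7). The antibody-positive lymph nodes came to 99.2, 111 and 79.2 normalized reads (mice D10, D11 and L25) and the young one to 85.9, so all 7 lymph nodes lay above the TLS.

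Pou2f2, its DNA-binding partner, had no read in any kidney. TLS held 22 (mouse H115), 5 (mouse H20) and 9 reads (mouse H6), the proteinuric lymph nodes 23 (mouse H117), 15 (mouse H20) and 2 (mouse H6), the antibody-positive lymph nodes 14, 21 and 15 (mice D10, D11 and L25) and the young one 7. The TLS of mouse H115, at 24.0 normalized reads, was the highest of all 14 libraries, and the TLS and lymph node groups overlapped.

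Spib was the second member by level per kilobase, with means of 6.61 normalized reads per kilobase in TLS and 16.0 in the proteinuric lymph nodes, and it had no read in kidney. TLS held 18, 15 and 30 reads (mice H115, H20 and H6), the proteinuric lymph nodes 72, 56 and 18 (mice H117, H20 and H6), the antibody-positive lymph nodes 48, 72 and 24 (mice D10, D11 and L25) and the young one 36. After scaling, the lowest proteinuric lymph node (26.1 normalized reads, mouse H6) was just above the highest TLS library (25.4, also mouse H6).

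Ikzf1 was present at 2 reads each in the kidneys of mice H20 and H6 and at 0 in the other 2. TLS held 9, 18 and 20 reads (mice H115, H20 and H6) and the proteinuric lymph nodes 66, 33 and 20 (mice H117, H20 and H6), so that the lymph nodes, at 29.0 to 53.4 normalized reads, did not overlap TLS, at 9.81 to 17.0. The antibody-positive lymph nodes held 46, 34 and 27 reads (mice D10, D11 and L25) and the young one 49. Its relative Ikzf3 had no read in kidney, 1, 7 and 11 in TLS (mice H115, H20 and H6), 24, 15 and 5 in the proteinuric lymph nodes (mice H117, H20 and H6), 9 in each antibody-positive lymph node and 15 in the young one. TLS and proteinuric lymph node overlapped for Ikzf3.

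Among the factors of the germinal center and plasma cell steps, Bcl6 was the member most evenly spread over the tissues. Kidneys held 3, 0, 2 and 3 reads (mice H115, H117, H20 and H6), TLS 4, 7 and 4 (mice H115, H20 and H6), the proteinuric lymph nodes 15, 7 and 1 (mice H117, H20 and H6), the antibody-positive lymph nodes 6, 7 and 3 (mice D10, D11 and L25) and the young one 5. All groups with several libraries overlapped their neighbours in this order. Bach2 had no read in kidney and a single read in TLS (mouse H20), against 4, 2 and 0 in the proteinuric lymph nodes (mice H117, H20 and H6), 3, 4 and 3 in the antibody-positive ones and 5 in the young one.

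Irf4 had 1 read in the kidney of mouse H20 and none in the other 3. TLS held 4 (mouse H115), 16 (mouse H20) and 27 reads (mouse H6), the proteinuric lymph nodes 28, 24 and 11 (mice H117, H20 and H6), the antibody-positive lymph nodes 18, 18 and 17 (mice D10, D11 and L25) and the young one 18. The TLS of mouse H6, at 22.9 normalized reads, was level with the highest lymph node (22.7), while the TLS of mouse H115, at 4.36, was far below the lowest, at 15.9.

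**Figure D1:**
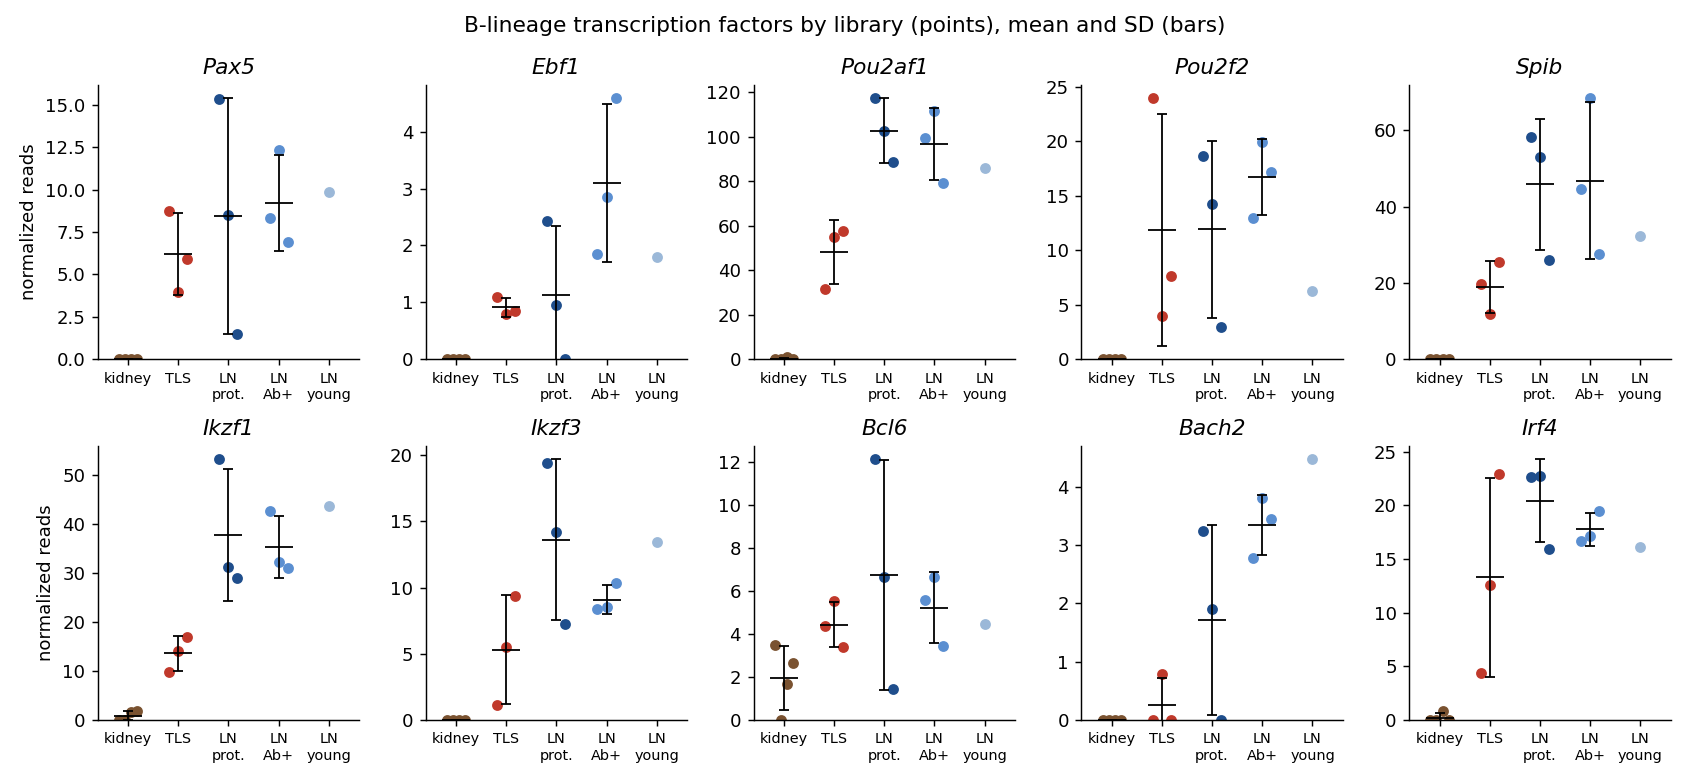
Normalized reads (reads divided by the size factor, linear axis from 0) of the 10 factors in kidney, TLS and proteinuric (prot.), antibody-positive (Ab+) and young lymph node (LN). Points are libraries and bars the mean and SD, with none for the single young library; kidney points lie at or near 0 for all but Bcl6, and lymph node and TLS points are apart for Spib, Pou2af1 and Ikzf1.

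In the proteinuric lymph nodes, the library of mouse H6 was the lowest for all 10 members, and that of mouse H117 the highest for 9, with Irf4 the exception. The 7 B-cell markers, such as Cd79a, Ms4a1 and Cd22, summed to 688 normalized reads in the node of mouse H6, 847 in that of mouse H117 and 1091 in that of mouse H20, so their highest library was not that of most members. The library of mouse H6 is the one with 32.7% ribosomal RNA. The part of either in the order was not tested. The antibody-positive lymph nodes had no such common order. The library of mouse D11 was the highest for 6 members and the lowest for 0, that of mouse D10 the lowest for 5 and the highest for Ikzf1, and that of mouse L25 the lowest for 5 and the highest for Ebf1, Ikzf3 and Irf4. In TLS the members split as well. The library of mouse H115 was the highest for Pax5, Ebf1 and Pou2f2 and the lowest for Pou2af1, Ikzf1, Ikzf3 and Irf4, while that of mouse H6 was the highest for Spib, Pou2af1, Ikzf1, Ikzf3 and Irf4.

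The comparison of kidney with TLS addressed which genes set the structures apart from the kidney around them. The members were lower in kidney. Together they had 14 reads in the 4 kidney libraries, 8 of them of Bcl6, against 418 in the 3 TLS libraries. Of the 8 members that passed the filter on low values (mean deposited value of at least 5, which Ebf1 and Bach2 did not), 7 were called lower in kidney (limma on log2(value + 1), adjusted p under 0.05), beside 8.62% of all 7382 genes tested. The kidney and TLS libraries did not overlap for these 7 members, beside 13.4% of all genes that were lower in every kidney library. Because a member without a read in kidney passed the filter through the tissues in which it is high, the count is a description. The median log2 difference over the 8 members was -2.38, beside 0.01 over all genes.

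Pou2af1 differed by the most, with a log2 fold change of -4.37 ± 0.30 (SE, adjusted p = 2.88e-05), and the ratio of pooled reads was 186-fold higher in TLS with an exact 95% interval of 32.9 to 7372, which covers counting error only. Spib fell by 3.23 on the log2 scale in kidney (adjusted p = 0.000129). Its TLS level was 23.3-fold the floor of 3 reads over the 4 kidneys. The exact 95% interval of its ratio of pooled reads began at 18.4-fold. Irf4 fell by 2.49 (adjusted p = 0.00154) and Ikzf1 fell by 2.37 (adjusted p = 0.000465), with ratios of pooled reads of 52.2-fold (8.93 to 2106) and 13.1-fold (4.77 to 49.9). These 4 were past the threshold under every alternative setting tried, and Pou2f2 under every one that tested it.

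The other calls were smaller. Pou2f2 fell by 2.39 (adjusted p = 0.0117), and its TLS level was 13.3-fold the kidney floor (exact 95% interval of the ratio from 10.3-fold). Without the TLS of mouse H115, which held 22 of the 36 reads, the log2 fold change was -1.79 (adjusted p = 0.0433). The level was then 7.12-fold the floor. Pax5 fell by 1.88 (adjusted p = 0.0284) and Ikzf3 fell by 1.58 (adjusted p = 0.0391). Their TLS levels were 7.41-fold and 7.04-fold the floor (4.56-fold for Ikzf3 without the TLS of mouse H6), with exact intervals from 5.5-fold and 5.2-fold. The Pax5 call was lost with a pseudocount of 5 (adjusted p = 0.0541) and without the TLS of mouse H6 (0.1000), the kidney of mouse H115 (0.0519) or the lymph node of mouse H20 (0.0583). The Ikzf3 call was lost under 9 settings, among them scaling to reads outside ribosomal RNA (0.0701) and leaving out the TLS of mouse H6 (0.212). Bcl6 was not called, with a log2 fold change of -0.66 (95% interval -1.63 to 0.31, adjusted p = 0.373), so that equal levels and a kidney level lower by 1.63 on the log2 scale were both within its error.

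Against the proteinuric lymph nodes, 7 of the 8 tested members were again called lower in these kidney libraries, beside 20.8% of all genes. They were also lower in every kidney library than in every lymph node library, beside 23.3%. This count too is a description, because members without a read in kidney at this depth passed the filter through the tissues in which they are high. The log2 fold changes were -5.47 for Pou2af1 (adjusted p = 1.64e-07), -4.41 for Spib (1.41e-06), -3.70 for Ikzf1 (2.53e-06), -3.25 for Irf4 (3.92e-05), -2.81 for Ikzf3 (0.000362), -2.50 for Pou2f2 (0.00264) and -2.06 for Pax5 (0.00615). The 7 members were past the threshold under every alternative that tested them. Lymph node levels were 61.1-fold the kidney floor for Spib, 18.4-fold for Ikzf3, 16.7-fold for Pou2f2 and 12.1-fold for Pax5. That of Pax5 was 7.15-fold without the node of mouse H117. Exact 95% intervals of the ratios of pooled reads began at 49.06-fold for Spib, 14.36-fold for Ikzf3, 12.99-fold for Pou2f2 and 9.255-fold for Pax5. Bach2 had 6 reads in the lymph nodes and Ebf1 4, against 0 in kidney, and the exact 95% intervals of these ratios began at 1.48-fold and 0.83-fold. Without the node of mouse H117, 2 and 1 reads were left, which is below the floor. With no filter on low values, limma called Bach2 lower in kidney than in lymph node (-0.76, adjusted p = 0.0454) and not Ebf1 (-0.54, adjusted p = 0.128), and neither was called in the other 3 comparisons. Bcl6 was not called (-0.96, 95% interval -1.93 to 0.01, adjusted p = 0.100). It was called under 3 alternatives, among them without the lymph node of mouse H6 (-1.46, adjusted p = 0.0150).

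Other genes of the B-cell program stood beside the members in these comparisons. Of 12 genes that Pax5, Ebf1 or their partners are known to regulate, 10 could be tested and 9 were lower in kidney than in TLS, led by Cd79a (-4.85, adjusted p = 9.65e-05) and Cd79b (-4.38, 0.000155), the signalling chains of the B-cell receptor. Of 26 other regulators of the lineage in the table, 12 could be tested and 4 were lower in kidney than in TLS, with Irf8 (-1.87, adjusted p = 0.00891), Ets1 (-1.57, 0.0303) and Fli1 (-1.44, 0.00646) ahead. Against the lymph node these counts were 10 of 10 and 9 of 12. All 8 T-cell markers and 5 of 6 tested plasma cell markers were also lower in kidney than in TLS, as were 3 of 6 macrophage, 1 of 1 dendritic cell, 1 of 2 germinal center, 2 of 5 stromal and 0 of 4 adipocyte markers tested (0 also at an unadjusted p under 0.05). So were all 7 B-cell markers and 4 of 4 urothelial markers tested, with median log2 differences of -3.46 and -3.83. Of 5 proximal tubule markers, 2 were called higher in kidney. Of the defining B-cell markers, Ms4a1 and Faim3 had no read in kidney, where the 7 markers summed to between 3.48 and 42.2 normalized reads against 376 to 557 in TLS.

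**Figure D2:**
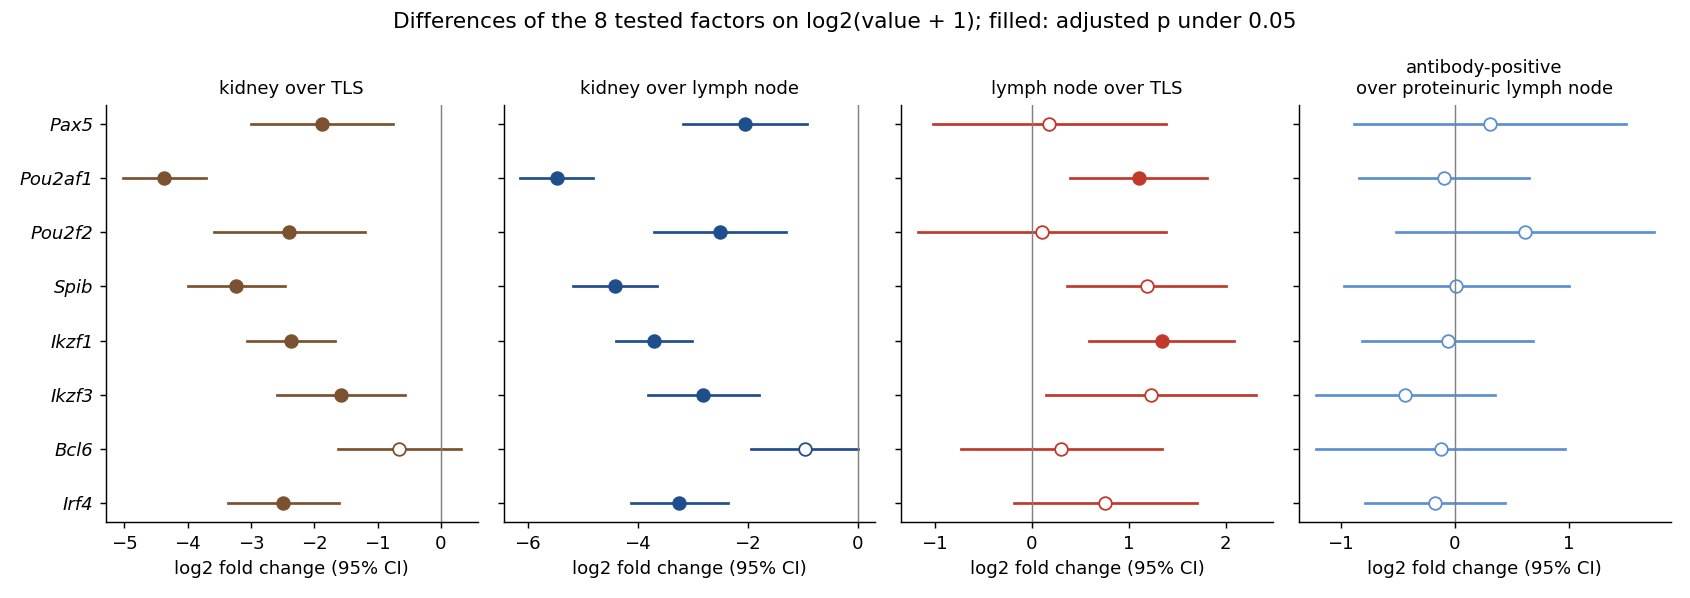
Log2 fold changes on log2(value + 1) of the 8 tested factors with 95% intervals in 4 comparisons. Filled points passed an adjusted p of 0.05 (limma): 7 in each comparison with kidney, 2 (Pou2af1 and Ikzf1) for lymph node over TLS and 0 for antibody-positive over proteinuric lymph node. The filled points for lymph node over TLS became open when the mouse was a block and in every count test.

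The comparison of lymph node with TLS bears most directly on the likeness of the 2 tissues. All 8 tested members had a higher mean log2 level in the lymph node (Pou2f2 turned to -0.08 with TMM scaling in edgeR), with a median difference of 0.93 beside 0.04 over all genes, and 2 of the 8 were called, beside 1.69% of all genes called higher in the lymph node. Ikzf1 rose by 1.34 ± 0.34 (SE, adjusted p = 0.0243) and Pou2af1 by 1.10 ± 0.32 (adjusted p = 0.0477). Spib, at 1.18 (95% interval 0.37 to 2.00), just missed the threshold (adjusted p = 0.0673). These 3 were higher in every lymph node library than in every TLS library, beside 9.48% of all genes. Their ratios of pooled reads were 2.86-fold for Ikzf1 (exact 95% interval 2.03 to 4.10), 2.62-fold for Spib (1.94 to 3.58) and 2.13-fold for Pou2af1 (1.76 to 2.58), for counting error only.

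Neither call was firm. With the mouse as a block, which pairs tissues of 1 animal, the adjusted p was 0.136 for Ikzf1 and 0.231 for Pou2af1. No member was called by edgeR's quasi-likelihood test or by DESeq2 on the recovered reads, where the adjusted p was between 0.0502 and 0.0833 for Ikzf1 and between 0.0743 and 0.229 for Pou2af1. Both calls were lost without the TLS of mouse H115 (0.111 and 0.226), the TLS of mouse H20 (0.0654 and 0.0728), the lymph node of mouse H117 (0.120 and 0.151) or the lymph node of mouse H20 (0.0508 and 0.113), and that of Pou2af1 also without the lymph node of mouse H6 (0.0639) or any 1 kidney library (0.0504 to 0.0676). Spib was called without the TLS of mouse H6 (0.0441) or the lymph node of mouse H6 (0.0288). Over all alternatives, members not called in the main fit were called 4 times, these calls of Spib included.

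For the other members the data allow a wide range. The log2 difference of lymph node over TLS was 1.23 for Ikzf3 (95% interval 0.14 to 2.31, adjusted p = 0.156) and 0.76 for Irf4 (-0.18 to 1.70, adjusted p = 0.334). It was 0.31 for Bcl6 (-0.73 to 1.34), 0.18 for Pax5 (-1.02 to 1.38) and 0.11 for Pou2f2 (-1.17 to 1.38), with adjusted p of 0.759, 0.891 and 0.944. For Pax5 and Pou2f2 an over 2-fold difference in favour of either tissue was therefore within the error.

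Markers of several cell types moved with these differences. The 7 B-cell markers summed to between 376 and 557 normalized reads in TLS and between 688 and 1091 in the proteinuric lymph nodes, with a median log2 difference of 1.01 and 0 of 7 called by limma (4 at an unadjusted p under 0.05). The 8 T-cell markers summed to between 97.0 and 179 in TLS and between 308 and 328 in the lymph nodes, with 4 of 8 called higher in the lymph node, led by Cd8a (2.12, adjusted p = 0.00219), Cd3e (1.76, 0.0166) and Lck (1.53, 0.0374). Tcf7, a T-cell factor, was also higher in the lymph node (2.19, adjusted p = 0.00676), as were 3 of the 12 other B-lineage regulators tested, Klf2 (1.77, 0.0182), Irf8 (1.53, 0.0418) and Tcf3 (1.49, 0.0295), while 0 of the 10 target genes were called (6 at an unadjusted p under 0.05). Adipocyte markers differed by the most among the lists higher in the lymph node, with a median log2 difference of 2.57 over 4 tested genes. All 4 were under an unadjusted p of 0.05. Cidec was called (2.72, adjusted p = 0.0464), though its TLS and lymph node libraries overlapped. The adipocyte markers summed to between 44.7 and 314 normalized reads in TLS and between 153 and 1676 in the lymph nodes. Macrophage markers summed to between 845 and 1542 in TLS and between 2103 and 2490 in the lymph nodes, with 0 of 6 called (1 at an unadjusted p under 0.05, Lyz2 at 1.56). No plasma cell (6 tested), germinal center (2), dendritic cell (1) or stromal (5) marker was called by limma, with 1, 0, 0 and 1 at an unadjusted p under 0.05, while 4 of 5 proximal tubule and 4 of 4 urothelial markers were lower in the lymph node. The part of cell numbers in the members' differences was not tested.

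Set against the B-cell markers of the library instead of its size factor, the members did not separate TLS from lymph node. Pou2af1 had 8.41, 14.1 and 10.4 reads per 100 reads of the 7 B-cell markers in TLS (mice H115, H20 and H6) and 13.8, 9.38 and 12.8 in the proteinuric lymph nodes (mice H117, H20 and H6). Spib had 5.22, 3.03 and 4.57 in TLS and 6.88, 4.86 and 3.79 in the lymph nodes, and Ikzf1 2.61, 3.64 and 3.04 against 6.30, 2.86 and 4.21. The libraries of TLS and lymph node overlapped in this share for all 10 members. This overlap was computed for the members only and not for all genes, so it is a description.

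The limma test relative to the markers called 0 of the 8 members (0 also at an unadjusted p under 0.05, beside 40.7% of all genes), beside 25.4% of all genes called in either direction. Subtracting the markers moved the median log2 difference of all genes from 0.04 to -1.01. Both shares carry that shift and are no reference for the members. With the TLS and lymph node libraries alone in the fit, an alternative chosen after seeing the data, 0 members were called as well. The log2 differences relative to the markers were 0.06 for Pou2af1 (95% interval -1.04 to 1.15), 0.14 for Spib (-0.94 to 1.22), 0.29 for Ikzf1 (-0.78 to 1.36), 0.18 for Ikzf3 (-1.12 to 1.48) and -0.29 for Irf4 (-1.39 to 0.82). They were -0.74 for Bcl6 (-2.01 to 0.53), -0.86 for Pax5 (-2.31 to 0.58) and -0.94 for Pou2f2 (-2.17 to 0.29), beside a median of -1.01 over all genes. The intervals are wide enough to hold a 2-fold difference for each of the 8, so a change relative to the markers is neither shown nor limited to less than that. Their widths rest on a spread shared with the kidney libraries in the fit, where the markers summed to only 3.48 to 42.2 normalized reads. Other cell types, such as T cells, also hold RNA of some members, so a difference relative to the markers is not a difference per B cell.

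**Figure D3:**
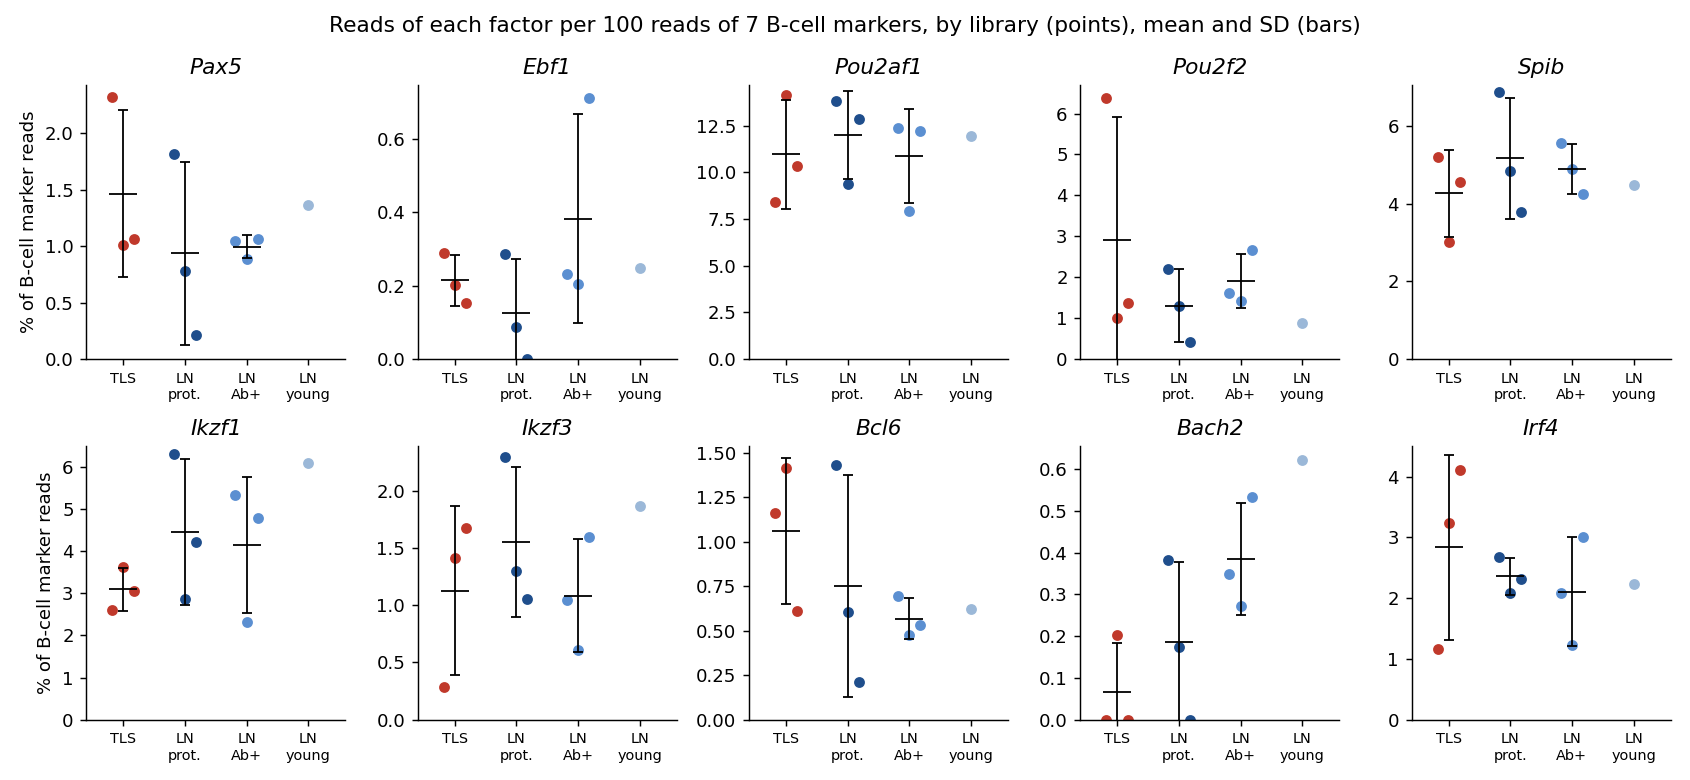
Reads of each factor per 100 summed reads of 7 B-cell markers (linear axis from 0) in TLS and proteinuric (prot.), antibody-positive (Ab+) and young lymph node (LN). Points are libraries and bars the mean and SD; TLS and proteinuric lymph node overlap for all 10 factors, including Pou2af1 at 8.41 to 14.1 and 9.38 to 13.8.

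Between the antibody-positive and the proteinuric lymph nodes, which asked how the node changes as disease progresses, 0 of the 8 tested members and 0 of all 6810 genes were called (limma), 0% in either direction. At an unadjusted p under 0.05 there were 215 genes (3.16%), and no member was among them. DESeq2 called 13 genes and edgeR 0, with 0 members. The log2 fold changes of antibody-positive over proteinuric lymph node were between -0.43 (Ikzf3, 95% interval -1.22 to 0.35) and 0.61 (Pou2f2, -0.52 to 1.74), each with an adjusted p of 0.998. Pou2af1, the best counted member, gave -0.09 (-0.84 to 0.65) and Ikzf1 -0.06 (-0.81 to 0.68). The 2 groups overlapped for all 10 members, while 6.08% of all genes were higher and 2.50% lower in every antibody-positive library. Relative to the B-cell markers, 0 of the 8 members were called as well (0 also at an unadjusted p under 0.05, beside 1.73% of all genes), beside 0.0441% of all genes. RNA kit, age (18 to 29 against 32 to 39 weeks) and stage cannot be told apart in this comparison.

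The young lymph node is a single library with no replicate check. Its levels were within the range of the other 6 lymph nodes for 9 of the 10 members, and above it for Bach2 (5 reads, or 4.47 normalized reads, against at most 3.81). Pou2f2, at 6.26 normalized reads, was below each antibody-positive lymph node but above the proteinuric one of mouse H6.

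The pattern of each member over the 14 libraries was set beside those of 7177 genes, by Pearson's r of log2(value + 1), as a description over libraries that share tissue and depth. The genes most like Pou2af1 were Lax1 (r = 0.995), Lpxn and Fcrla, those most like Spib were Map4k1 (0.993), Parvg and Faim3, and those most like Ikzf1 were Fli1 (0.992), Lcp2 and Glycam1. Pax5 was most like Cxcr5 (0.952), Pou2f2 and Nfatc1, and Pou2f2 in turn most like Pax5 (0.951), Cxcr5 and Tcf4. Ikzf3 was most like Grap2 (0.977), Cd274 and Tnfrsf14, and Irf4 most like Pla2g2d (0.981), Arhgap25 and Pou2af1. For the members near the floor the likeness was lower or rested on few reads, with Ints1 (0.883), Srrm1 and Arid1a for Bcl6, Lyve1 (0.952), Cd96 and Gm22175 for Bach2 and Gm10036 (0.914), Gm22175 and Akt2 for Ebf1.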

How the data were processed

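The authors sequenced poly(A) RNA of the 14 libraries on an Ion Torrent PGM and mapped it to GRCm38 in CLC Genomics Workbench 8 with default settings; whether reads were counted by strand is not given in the sources used here, so reads of Pax5, Ebf1, Pou2f2, Ikzf1, Bcl6 and Bach2 and of the genes annotated on their other strand cannot be told apart. The deposited signal per gene is 1 more than its reads, scaled by the library's size factor, and whole reads were recovered for 100% of the values (tolerance 1e-06). The 3 tissues went into a joint fit of 10 libraries, and the lymph node stages into a fit of 6, with limma 3.58.1 (trend and robust moderation, R 4.3.3) on log2(value + 1) for genes whose mean value reached 5, Benjamini-Hochberg adjusted over all genes tested. A fold change on this scale understates that of a low gene. Tests relative to B-cell markers first subtracted the library's mean log2 marker level. The tests were checked on simulated data.

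The alternatives were edgeR 4.0.16 and DESeq2 1.42.0 on recovered reads, other filters, pseudocounts and scalings, the mouse as a block, and each library left out. Added after seeing the data were the marker test with TLS and lymph nodes alone and the removal of 3 libraries rich in ribosomal RNA. Mouse numbers link tissues of 1 animal, and deviations from the tissue means correlated at 0.351 to 0.454 between TLS and kidney of 1 mouse (3 pairs), at -0.266 and 0.0254 between TLS and lymph node (2) and at -0.335 to 0.202 between kidney and lymph node (3). Exact intervals of read ratios are 95% Clopper-Pearson intervals of the split of reads. Folds over the floor use 3 reads over the group and leave out the counting error of the other tissue. No 2 libraries of a group agreed within sampling noise. Levels per kilobase used the exons of GENCODE M21. The members and all gene lists were chosen with earlier results of these data known. The rule named, per list and comparison, at most 3 called genes whose libraries did not overlap, by size of change. Cidec, whose libraries overlapped, and Lyz2, which was not called, were named outside it. Libraries of a group came from different mice, which also differed in age. Folds over the floor without each library and the marker sums per library were added after seeing the data. 1 gene that these lists hold is not reported here by name. Whole kidneys were not analysed here.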

Additional observations from a re-analysis of the deposited data

Results flagged for a closer look

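Levels in the 4 kidney libraries were searched for a library far from the other 3. Chance meets this rule in about 1 of 20 groups of continuous values. However, 1 library with any read against 3 with 0 always meets it, so that rate does not hold here. Pou2af1 stood apart at 0.844 normalized reads in the kidney of mouse H20, and Irf4 likewise at 0.844 normalized reads in that library. Each value is a single read against 0 in the other 3 kidneys, below the floor of 3 reads.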

How the results depend on the processing

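The count of members called lower in kidney than in TLS (7) was 5 to 7 under the alternatives other than the filter and 4 with a mean value of at least 10, which tested fewer members and gave 4 for kidney over lymph node too. The 2 members called higher in lymph node than in TLS became 0 with edgeR (TMM or DESeq2 size factors), DESeq2, scaling to reads outside ribosomal RNA, the mouse as a replicate block and the 2 tissues alone, and 1 with no filter, a pseudocount of 0.5 and without the 3 libraries rich in ribosomal RNA, while leaving out 1 library gave 0 to 3. Genes called for lymph node over TLS numbered 518 with the 2 tissues alone, 408 without the 3 libraries, and 480 to 977 with 1 library left out (481 without the TLS of mouse H115 and 480 without the lymph node of mouse H117), against 780. For kidney over TLS they numbered 530 to 1344 with 1 library left out (530 without the TLS of mouse H6 and 692 without the kidney of mouse H115), against 1084. For antibody-positive over proteinuric lymph node they numbered 13 with DESeq2, 8 with no filter, 7 with all 14 libraries and 0 to 5 with 1 library left out (5 without mouse D11), against 0. The causes were not tested. The replicate block changed no other call of a member. TMM moved the median log2 difference of all genes from 0.01 to -0.11 for kidney over TLS and from 0.04 to -0.14 for lymph node over TLS, and scaling outside ribosomal RNA moved it from -0.05 to 0.09 for kidney over lymph node.

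Signs turned only where no test had been passed. For lymph node over TLS, Pou2f2 was -0.076 with edgeR and TMM, and with 1 library left out Pou2f2 ranged from -0.38 to 0.72 and Pax5 from -0.046 to 0.78. For antibody-positive over proteinuric lymph node, Pax5 was -0.069 with edgeR and TMM and -0.016 with edgeR and DESeq2 size factors. Spib was -0.082, -0.038, -0.061 and -0.14 with these 2 edgeR fits, DESeq2 and scaling outside ribosomal RNA. With 1 library left out, Pax5 ranged from -0.29 to 0.78, Spib from -0.32 to 0.33, Pou2af1 from -0.20 to 0.040, Ikzf1 from -0.21 to 0.20 and Bcl6 from -0.62 to 0.30. Relative to the B-cell markers, Ikzf3 for lymph node over TLS was -0.13 with a pseudocount of 5, and with 1 library left out ranged from -0.27 to 0.48, Spib from -0.089 to 0.29, Pou2af1 from -0.15 to 0.23 and Irf4 from -0.75 to 0.056. Ebf1 and Bach2 were tested only with no filter.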
